A study of Mus musculus with 6 samples.

Results

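Carbonic anhydrases are the zinc enzymes that interconvert carbon dioxide and bicarbonate, and 10 of their genes (Car1, Car2, Car3, Car4, Car6, Car8, Car9, Car12, Car13 and Car14) were followed here in a mouse bone marrow stromal cell line, out of 19938 genes that have a probe set of their own on the array. The genes were found by exact gene symbol, with 1 probe set each. The family was selected on the MEK inhibitor minus control values of these same arrays, among which Car3 stands out, so these differences are given for the members as a description with no test. MS5 cells, a stromal line grown in alpha-MEM with fetal bovine serum, received either the MEK inhibitor PD184352 (MEKi) at 1 μM or DMSO, its diluent, for 7 days. Each of 3 experiments gave 1 array per condition, 6 in all, and the cultures differed by no other agent named in the labels. The extracts came from MS5 cells alone, a single line. Values are log2 intensities after RMA, the authors' normalization, so that a difference of 1 is a doubling of signal.

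The cytosolic enzymes Car1, Car2, Car3 and Car13 buffer the cell interior. Car4, Car9, Car12 and Car14 are anchored in the plasma membrane with their active sites outside, Car6 is secreted, and Car8 has lost catalysis. Car3 is known for its abundance in fat cells, slow muscle and liver and for its low rate of carbon dioxide hydration. Bone marrow stroma holds precursors of fat cells and bone cells, and MEK relays growth factor signals to the kinase ERK.

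Upstream sequence from RefSeq (GRCm38.p6) was at hand for 5 members, Car4, Car6, Car9, Car12 and Car14. Motif letters were searched on both strands of the 250 bases before the annotated start. The 3 sets were TGANTCA, bound by AP-1, and CCGGAA, bound by ETS factors, as factor families that act below ERK, and ACGTG, the core letters of hypoxia response elements. The 100 bases next to the start are shown for Car9 and Car12, both known as hypoxia-responsive, and for Car14, whose signal was higher in every MEKi culture than in any diluent culture. Capitals mark the matches.
Car9 (chr4:43506926-43507025, plus strand): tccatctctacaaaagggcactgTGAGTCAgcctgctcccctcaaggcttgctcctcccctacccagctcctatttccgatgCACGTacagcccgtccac
Car12 (chr9:66713586-66713685, plus strand): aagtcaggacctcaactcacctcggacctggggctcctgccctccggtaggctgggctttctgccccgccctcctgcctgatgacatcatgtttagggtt
Car14 (chr3:95904686-95904785, minus strand): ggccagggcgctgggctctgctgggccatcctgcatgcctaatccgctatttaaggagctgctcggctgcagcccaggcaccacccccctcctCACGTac
Car9 held the AP-1 letters 77 to 71 bases before the start and the hypoxia letters, read on the other strand, 18 to 14 bases before it. Car14 held the hypoxia letters 7 to 3 bases before the start. Car12 held none of the 3 sets in its 250 bases. Outside the stretches shown, Car4 held the ETS letters on both strands of a palindrome that begins 199 bases before the start, and Car6 held a palindrome of the hypoxia letters that begins 149 bases before it. Over 32851 upstream windows of this length, 6.75% held the AP-1 letters, 12% the ETS letters and 16.6% the hypoxia letters.

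Car3 and Car13 were the members with a clear signal in MS5 cells. RMA files carry no detection call, so the 95th percentile of 1035 probe sets for olfactory receptor genes, which are largely silent outside the nose, was taken as a background level. It lay between 5.65 and 5.80 on the 6 arrays, under the array medians of 6.29 to 6.38 over all probe sets. Most probe sets of each array were thus above it, and a count of genes above it is a low bar. Car3 and Car13 were above it on every array, Car1 on the 3 MEKi arrays and on no diluent array, and the other 7 members on none. With vomeronasal receptor genes as the background, Car1 and Car14 were also above it on every array, 4 members in all. Probe sets differ in how strongly they bind, so no order of levels between genes is read from these values. The 14 marrow stromal markers measured include Cxcl12, the chemokine that retains blood stem cells, at 11.79 to 12.50, and 10 of them lay above the background on every array. Lepr, the leptin receptor of marrow stroma in the animal, stood between 4.04 and 4.25. Counts at an unadjusted p under 0.05, here and for later lists, have no share over all probe sets beside them. None of the 14 passed in limma between MEKi and diluent (2 higher and 1 lower at an unadjusted p under 0.05). Vcam1, an adhesion molecule, had the largest difference of them, −0.57 (adjusted p = 0.0942 from limma, 0.0208 to 0.9995 over the alternative fits), and passed in the fit with an intensity trend and not in the others.

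**Figure D1:**
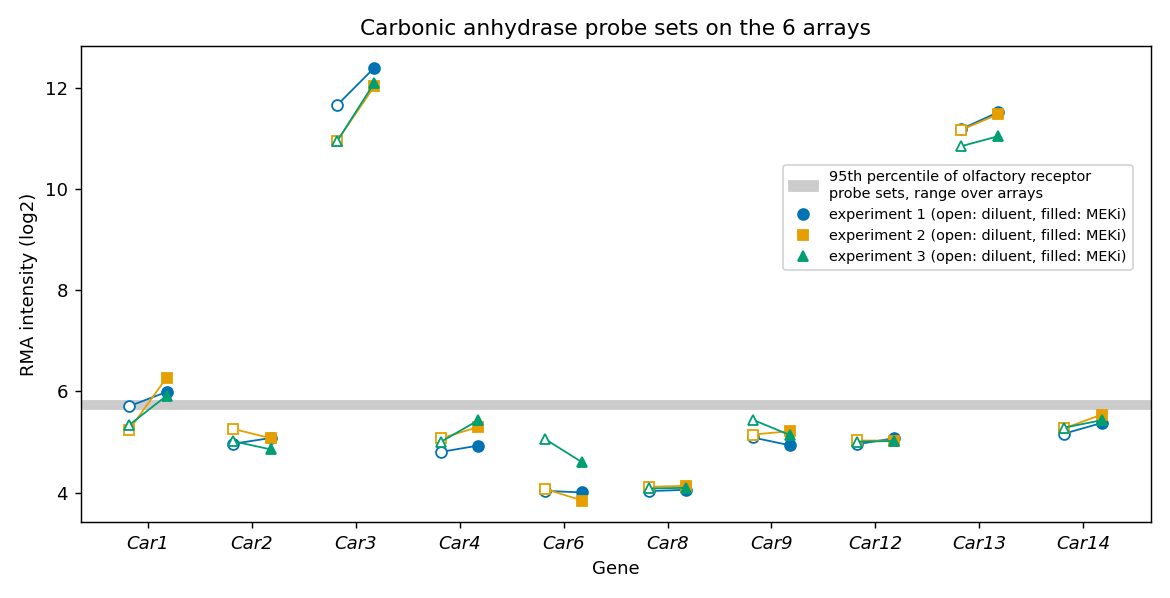
RMA intensity on the log2 scale (y axis) of the 10 members (x axis) on 6 arrays; open symbols are diluent, filled symbols MEKi, a line links the diluent and MEKi arrays of each experiment, and the grey band is the olfactory receptor background of 5.65 to 5.80. Car3 and Car13 lie above 10 on every array, and Car1 crosses the band from diluent to MEKi.

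Car3 signal about doubled with MEKi. In diluent its probe set (10490913) read 11.65, 10.95 and 10.94 in experiments 1, 2 and 3, and with MEKi it read 12.40, 12.03 and 12.10. The lowest MEKi culture was above the highest diluent culture. Within experiments the differences on the log2 scale were 0.74, 1.09 and 1.16, which are 1.67-fold, 2.12-fold and 2.24-fold. The mean difference was 1.00 (standard error 0.099 from limma, n = 3 experiments), close to a doubling. This standard error and those below are moderated with the variances of all probe sets, and the SD of the 3 Car3 differences was 0.22. The diluent culture of experiment 1 was the highest of the 3 and had the smallest difference. The MEKi cultures were closer to each other than the diluent cultures (SD 0.19 against 0.41, n = 3 each).

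Of the other cytosolic enzymes, Car13, which is found in many tissues, was higher with MEKi by a small amount. It read 11.18, 11.16 and 10.84 in diluent and 11.51, 11.47 and 11.04 with MEKi in experiments 1, 2 and 3. The groups overlapped, since the MEKi culture of experiment 3 was below the diluent cultures of experiments 1 and 2. The differences were 0.34, 0.31 and 0.20, with a mean of 0.28 (standard error 0.075), or 1.22-fold. Car1, the abundant enzyme of red cells, read 5.71, 5.24 and 5.34 in diluent and 5.99, 6.27 and 5.91 with MEKi. All MEKi cultures were above all diluent cultures, at levels that start below the background and end just above it. Its differences of 0.28, 1.03 and 0.58 varied more than those of Car3 (SD 0.38 against 0.22). They had a mean of 0.63 (moderated standard error 0.135). Car2, the fast enzyme of kidney, red cells and osteoclasts, read 4.96, 5.26 and 5.01 in diluent and 5.08, 5.07 and 4.85 with MEKi. Its differences had both signs and a mean of −0.08 (standard error 0.087).

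Car13, Car1, Car3 and Car2 are the 4 protein-coding genes of an unbroken stretch in the RefSeq gene order, so the differences can be read along the genome. The 3 measured protein-coding genes before Car13 had mean differences of 0.11 (Lrrcc1), 0.21 (E2f5, a cell cycle transcription factor) and 0.22 (Rbis). The 3 after Car2 were at −0.002 (Gm9733), 0.003 (Gm5150) and 0.008 (Ythdf3, a reader of methylated RNA). Car2, Gm9733 and Gm5150 had mean levels of 5.04, 3.91 and 4.87, below the background, where a change in RNA may leave the signal as it is. These 6 flanking genes were taken by position, after the values of Car3 were seen, and got no test.

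**Figure D2:**
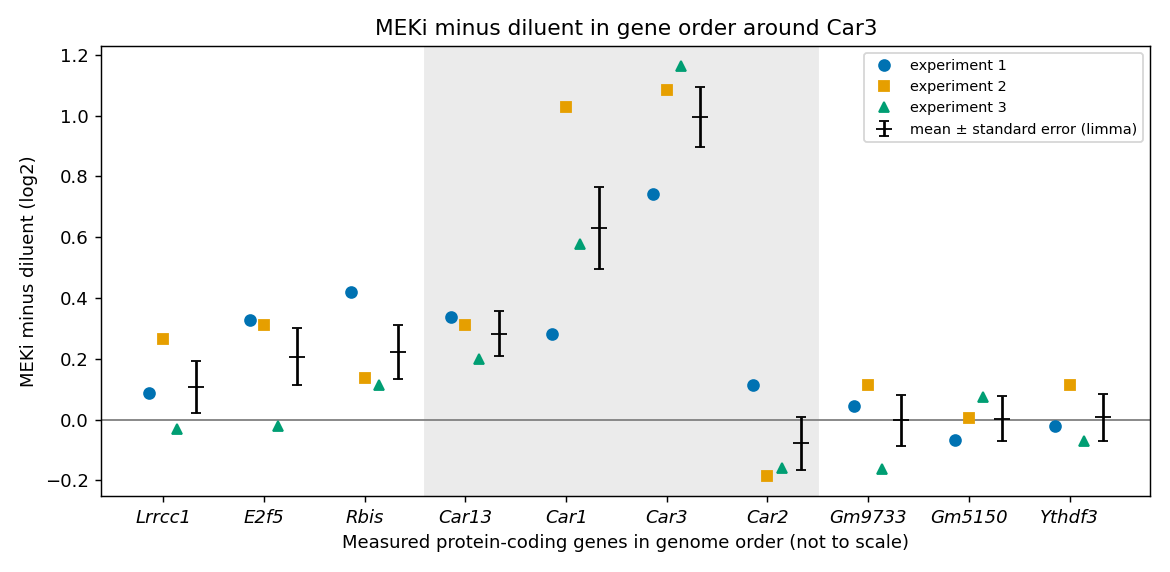
MEKi minus diluent on the log2 scale (y axis) for the 4 carbonic anhydrase genes (shaded) and 3 measured protein-coding genes on each side, in genome order (x axis, not to scale); symbols are the 3 experiments and the black bars the mean ± standard error from limma. Car1 and Car3 lie highest, at means of 0.63 and 1.00, between Car13 at 0.28 and Car2 at −0.08.

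The membrane-bound, secreted and inactive members stood below the background on every array, so their values say little about RNA of these genes. Car4, a lipid-anchored enzyme of capillaries and kidney, read between 4.80 and 5.07 in diluent and 4.93, 5.30 and 5.43 in MEKi experiments 1, 2 and 3, a mean difference of 0.26 (standard error 0.085). Car14, a transmembrane enzyme, read 5.17, 5.27 and 5.28 in diluent and 5.38, 5.54 and 5.43 with MEKi. Its groups did not overlap, and the mean difference was 0.21 (standard error 0.074). Car9 read 5.09, 5.15 and 5.44 in diluent and 4.93, 5.21 and 5.13 with MEKi, and Car12 stayed between 4.95 and 5.07 on all arrays. Their mean differences were −0.13 (standard error 0.092) and 0.04 (standard error 0.074), with both signs among experiments. Car6, the salivary enzyme, read between 3.84 and 4.07 on the 4 arrays of experiments 1 and 2, and it read 5.06 in the diluent culture of experiment 3. Its differences were −0.03, −0.23 and −0.46, with a mean of −0.24 (standard error 0.097). Car8, which lacks activity and is known from Purkinje cells, had the narrowest range of the 10 members, from 4.03 to 4.13, and a mean difference of 0.02 (standard error 0.072).

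Counted by rule, Car3 was the 1 member of 10 that passed as higher at an adjusted p under 0.05 in limma, a linear model with moderated variances, against 0.104% of all 28853 probe sets. No member passed as lower, against 0.0555% of probe sets. Car3 was also the 1 member at least 1.5-fold higher in each of the 3 experiments, which 0.0832% of probe sets were. Both counts use the contrast on which the family was selected, so nothing is read from them. The count of members that passed was 0 without experiment 2, without the replicate block, with the experiment as a random block and after median centring of the arrays, and no probe set of the array passed in those 4 fits. Of the members, 6 (Car1, Car3, Car4, Car8, Car13 and Car14) were higher in each experiment, against 23.8% of all probe sets, and 1 (Car6) was lower in each, against 7.98%. After centring or a further quantile normalization Car8 left the first group and Car9 joined the second, so that 5 were higher and 2 lower. In Car1, Car3 and Car14 all MEKi arrays were above all diluent arrays, 3 of 10 against 5.69% of probe sets. The median difference of the members was 0.13, beside 0.04 over all probe sets. These later counts and this median also use the contrast on which the family was selected, so nothing is read from them. Car4, Car6, Car8, Car9 and Car14, which enter them, were below the background on every array. In experiment 2 the median of all probe sets was itself 0.10, and centring left the Car3 difference of that experiment at 1.00 on the log2 scale.

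The other 6 carbonic anhydrases on the array had smaller mean differences than Car1 and Car3, and none passed in limma (2 at an unadjusted p under 0.05, both higher). Car5b, a mitochondrial enzyme, gave a strong signal of 10.88, 11.92 and 11.49 in diluent and 11.42, 12.04 and 12.13 with MEKi. Its differences of 0.54, 0.12 and 0.64 had a mean of 0.44 (standard error 0.110, adjusted p = 0.273 from limma). Car15, a lipid-anchored enzyme, had a mean difference of 0.20 and Car10, which lacks activity, one of 0.12. Car11, likewise inactive, Car7, a cytosolic enzyme of brain, and Car5a, the mitochondrial enzyme of liver, were at 0.06, −0.01 and −0.08. Of these 6, Car10 and Car5a were below the background on every array. The Car10 differences were −0.04, 0.38 and 0.03 in experiments 1, 2 and 3.

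**Figure D3:**
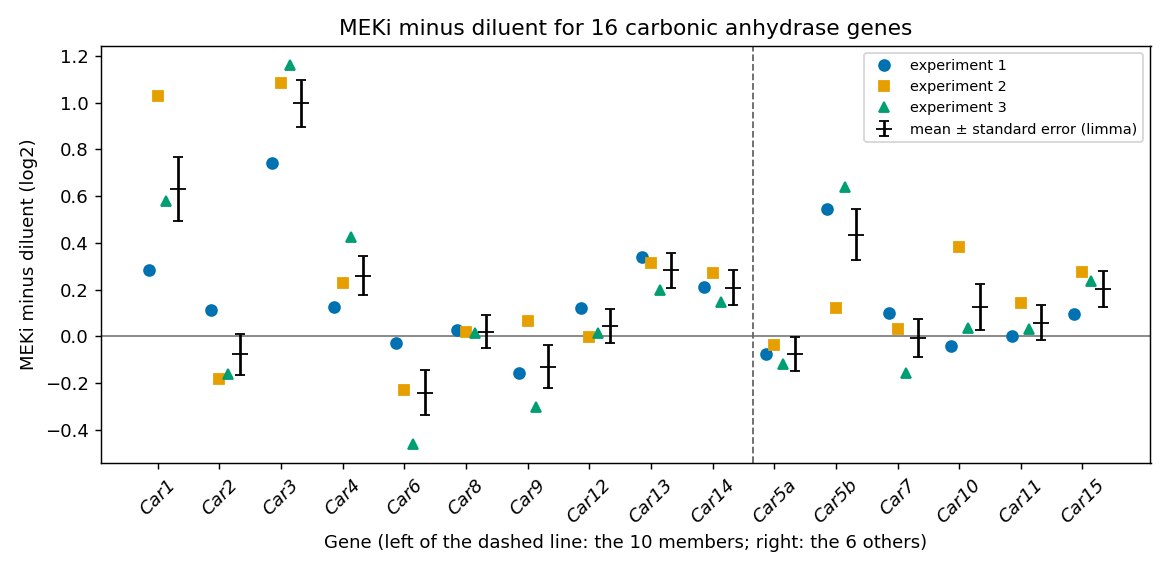
MEKi minus diluent on the log2 scale (y axis) for the 10 members and the 6 other carbonic anhydrase genes (x axis); symbols are the 3 experiments and the black bars the mean ± standard error from limma. Car3 has all 3 points above 0.7, and in the other group Car5b lies highest with a mean of 0.44.

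Whether a gene differed among the 3 experiments was not used to choose the members, and it was tested with the F test of the experiment terms in the same limma fit. Of the 10 members, 1 passed at an adjusted p under 0.05, against 7.69% of all probe sets. This was Car6 (adjusted p = 0.0109 from limma), whose mean over both arrays was 4.02, 3.96 and 4.83 in experiments 1, 2 and 3. Both arrays of experiment 3 were above all 4 others, although below the background level. Car3, with means of 12.03, 11.49 and 11.52, and Car13, with 11.35, 11.32 and 10.94, had adjusted p-values of 0.0555 and 0.0582 from limma. The 2 thus lay just outside the threshold, and both passed after centring, with an intensity trend, and among brighter probe sets. The share of all probe sets passing in those fits was not taken. Without experiment 3 Car6 did not pass and Car3 did. Among the other carbonic anhydrases Car5b passed (adjusted p = 0.0251 from limma), being lowest in experiment 1. Cultures and arrays of an experiment go together, so that cell state and array handling cannot be told apart here.

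Genes that move bicarbonate and protons with carbonic anhydrases did not pass in either direction. Over 53 measured genes of 5 lists (other carbonic anhydrases, receptor phosphatases with a carbonic anhydrase-like domain, bicarbonate transporters, proton and lactate exporters, and subunits of the proton pump V-ATPase), 0 passed in limma, and 3 were higher and 2 lower at an unadjusted p under 0.05. Their median difference was 0.01, beside 0.04 over all probe sets. Above the background on every array were 4 of 6 other carbonic anhydrases, 1 of 2 phosphatases and 5 of 14 bicarbonate transporters. So were 8 of 13 exporters and 16 of 18 V-ATPase subunits. The rest were not above it on some or all arrays, where a change in RNA may leave the signal as it is. Ptprg and Ptprz1, the receptor phosphatases, were both at −0.07. The Ptprg differences had both signs (−0.04, 0.25 and −0.41 in experiments 1, 2 and 3). Ptprz1 had a mean level of 3.47, below the background. Of 14 bicarbonate transporters, Slc4a10 (0.16), Slc4a11 (0.16), Slc4a8 (−0.13) and Slc4a5 (0.13) had the largest differences. Slc4a10 and Slc4a5 had mean levels of 4.10 and 5.58, below the background. Of 13 exporters, Hvcn1, a voltage-gated proton channel, had a difference of −0.50 (adjusted p = 0.254 from limma) with −0.82, −0.53 and −0.17 in experiments 1, 2 and 3. Slc9a9, a sodium-proton exchanger of endosomes, had a difference of 0.31 (adjusted p = 0.32 from limma), and Slc16a7 (0.12) and Slc16a8 (−0.11), carriers of lactate, were smaller. The mean level of Slc16a7 was 4.13, also below the background. Of 18 V-ATPase subunits, Atp6v0d2, a subunit rich in osteoclasts, was at −0.38 (adjusted p = 0.265 from limma), followed by Atp6v0a2 (0.19), Atp6v0e (0.16) and Atp6v1c1 (−0.09).

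Car9 and Car12 are textbook targets of the hypoxia response, and other genes of that response were lower with MEKi in experiments 1 and 3. Of 21 hypoxia-responsive genes, 1 fell and none rose in limma. At an unadjusted p under 0.05 there were 10 lower and 0 higher, with no share over all probe sets to set beside them. The fallen gene was Ak4, an adenylate kinase, at −0.81 (standard error 0.088, adjusted p = 0.0367 from limma, 0.00804 to 0.9995 over the alternative fits). It did not pass with any of the 3 experiments left out. Hk2, a hexokinase, had a difference of −0.99, Ero1a, an oxidase of protein folding, of −0.88, and Slc2a1, a glucose transporter, of −0.83, with adjusted p-values of 0.243 to 0.378 from limma. The median of the list was −0.72, −0.003 and −0.44 in experiments 1, 2 and 3, and all 21 genes were lower in experiments 1 and 3. In diluent the median level was 10.07, 9.38 and 10.77 in experiments 1, 2 and 3, lowest in experiment 2. With MEKi it was 9.37, 9.44 and 10.22. Of the 21 genes, 15 differed among experiments in limma, against the 7.69% of probe sets given above. The Car9 differences of −0.16, 0.07 and −0.31 had the same sign as the list in experiments 1 and 3, and the Car12 differences of 0.12, −0.003 and 0.01 had the opposite sign there. Both genes were below the background.

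Car3 is abundant in fat cells, and MS5 cultures carried adipocyte RNA in both conditions. Adipoq, the fat cell hormone adiponectin, read 11.30, 12.50 and 11.98 in diluent, and 19 of 23 measured adipocyte markers were above the background on every array. Most probe sets exceed this level, and Lep, Thrsp and Ucp1, with mean levels of 5.02, 5.04 and 4.61, were below it. With MEKi none of the 23 passed in limma (11 higher and 0 lower at an unadjusted p under 0.05), and their median difference was 0.31. Aqp7, a glycerol channel, had a difference of 0.70, Lipe, a lipase, of 0.54, Plin1, a lipid droplet coat protein, of 0.51 and Adipoq of 0.45, with adjusted p-values of 0.262 to 0.457 from limma. The list moved by experiment, with median differences of 0.21, 0.01 and 0.62 in experiments 1, 2 and 3, where Car3 differed by 0.74, 1.09 and 1.16. In experiment 2, where 11 markers were lower and 12 higher, the Car3 difference was above that of all 23, as it was in experiment 3, while 3 markers had a larger one in experiment 1. In diluent the median marker level was lowest in experiment 1 (9.34, against 11.04 and 10.08), the experiment with the highest diluent value of Car3. Of the 23 markers, 15 differed among experiments in limma, against the 7.69% of probe sets given above. The part of fat cell number in the Car3 values was not tested, and in such bulk cultures more cells of a type and more RNA per cell cannot be told apart.

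**Figure D4:**
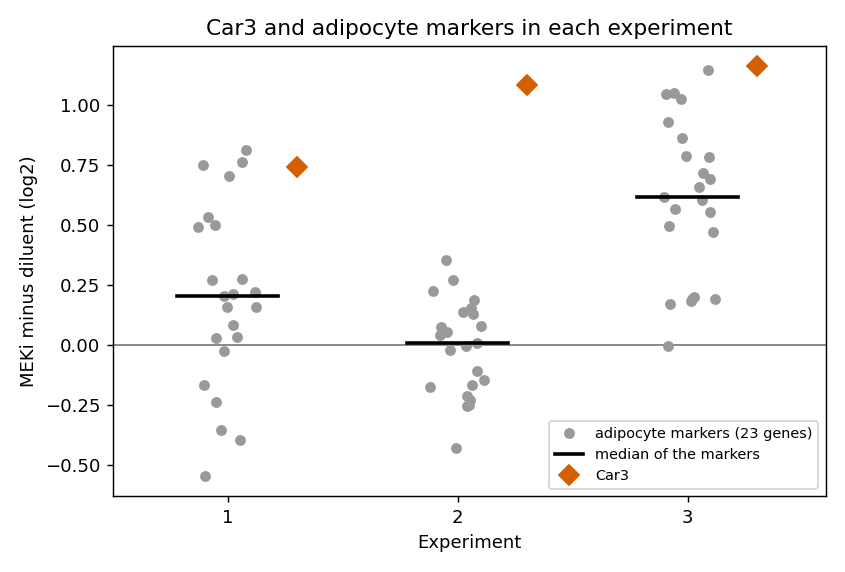
MEKi minus diluent on the log2 scale (y axis) of Car3 (diamonds) and 23 adipocyte markers (grey points, black bar at their median) in experiments 1, 2 and 3 (x axis). The marker median is 0.01 in experiment 2, where Car3 stands at 1.09.

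Muscle, red cells and osteoclasts also carry carbonic anhydrases, and some of their markers were above the background, a level that most probe sets exceed. Of 15 skeletal muscle markers, 7 were above the background on every array and none passed in limma (3 higher at an unadjusted p under 0.05, median difference 0.01). Acta1, skeletal actin, had the largest difference, 0.36, with 0.35, −0.06 and 0.80 in experiments 1, 2 and 3, and Mylpf (0.26), Pygm (0.22) and Myh1 (0.16) followed. Myog, a muscle regulator, stayed between 5.29 and 5.63. Of 7 erythroid markers, 2 (Epor and Ank1) were above the background on every array and none passed in limma (0 at an unadjusted p under 0.05), Alas2, the haem enzyme of red cells, having a difference of 0.16. Of 15 osteoclast and macrophage markers, 6 were above it, none passed in limma (2 higher and 3 lower at an unadjusted p under 0.05), and Acp5, Calcr and Ptprc, which define osteoclasts or blood cells, were below it on every array. Cd68, a lysosomal protein of macrophages, had a mean level of 10.1 and Ctsk, the osteoclast protease cathepsin K, of 8.20. Itgb3, an integrin chain, had a difference of −1.01 (adjusted p = 0.25 from limma), Cd68 of −0.61 and Lyz2, lysozyme, of 0.42.

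The 5 genes most like Car3 over the 6 arrays were all higher with MEKi in each experiment, and likeness over these arrays largely follows the contrast on which the family was selected. Among 764 probe sets that name 1 gene and span at least 1 on the log2 scale, Pearson's r with Car3 was highest for Mylk (0.95), the myosin light chain kinase, Nat8f5 (0.95), an acetyltransferase, S1pr1 (0.94), a receptor for sphingosine 1-phosphate, Gm5662 (0.92) and Cyp2e1 (0.92), a cytochrome P450. Car1 was the 8th in this order (0.90). The points share their experiments, and the values are a description over 6 arrays. S1pr1 differences were 0.58, 0.62 and 0.61 in experiments 1, 2 and 3, and those of Mylk were 0.66, 0.56 and 0.71, so both were more even than those of Car3.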

How the data were processed

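RNA of MS5 cells was hybridized to Affymetrix mouse Gene ST arrays. Per the paper's methods and the processing notes, the authors normalized the raw data with RMA and used Partek for statistics, with versions not given in the sources used here. The deposited values are log2 intensities of 28853 probe sets, from 2.25 to 14.07 with array medians of 6.29 to 6.38, and 0 array columns were left out. The number of arrays limits the precision. Genes were named by the platform table (21789 probe sets name 1 gene, 1621 several and 5443 none), and a listed gene with several probe sets was read by the one with the highest mean.

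MEKi minus diluent was estimated on all probe sets by limma 3.58.1 (R 4.3.3), with the experiment as a block and Benjamini-Hochberg adjustment over all probe sets. Residual degrees of freedom were 2 and the prior added 5.17. The labels and the paper place 1 array of each condition in each experiment, and deviations from group means correlated by 0.81, 0.59 and 0.62 within experiments across probe sets. The paper calls the experiments independent, done and processed apart. The p-values rest on the spread left after the MEKi and experiment terms, moderated with that of all probe sets. Differences among experiments were tested with the moderated F test. The fits were tested on simulated data.

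Lists covered acid-base genes, hypoxia-responsive genes, and adipocyte, muscle, erythroid, osteoclast and macrophage, and marrow stromal markers. The rule for names took all members, all other carbonic anhydrases, up to 4 genes of each list by size and the 5 genes most like Car3; Car1, and the marker genes and flanking genes described by level or position, were named besides. Members and lists were chosen with earlier results of these data known. An unadjusted p of at most 0.05 with 1.5-fold was an alternative. The methods print their p threshold as 0.05%, which is 0.0005, and this stricter reading was added after seeing the data. Motif searches and figures used Python 3.11.15 and matplotlib 3.10.9.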

Additional observations from a re-analysis of the deposited data

How the results depend on the processing

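The Car3 difference was 0.965 to 1.00 on the log2 scale in the 5 alternative fits that use all arrays and 0.91 to 1.12 with an experiment left out. Removing the block or making it random cannot change a difference in this balanced design, so those fits bear only on its standard error. The number of members passing in limma was 0 with no replicate block, with a random block and after median centring, against 1 in the fit reported, and 0 to 1 with an experiment left out (0 without experiment 2). Member counts for MEKi against diluent, here and below, use the contrast on which the family was selected, so nothing is read from them. At an unadjusted p of at most 0.05 and 1.5-fold, looser than the methods as printed, the number of members was 2, Car1 and Car3. Counts at an unadjusted p, here and below, have no share over all probe sets beside them. Hypoxia-responsive genes passing numbered 0 with no replicate block, with a random block and after centring, 0 in each fit with an experiment left out, and 4 at the unadjusted p of at most 0.05. Adipocyte markers passing numbered 1 (Aqp7) at that p and 0 in the other fits, and acid-base genes 0 throughout. At an unadjusted p of at most 0.0005 and 1.5-fold, chosen after seeing the data, members numbered 1 (Car3), hypoxia-responsive genes 1 (Ak4), adipocyte markers 0 and acid-base genes 0. Members differing between experiments numbered 2 after a further quantile normalization and among brighter probe sets, 3 after centring and in the fit with a robust prior and intensity trend, and 1 in each fit with an experiment left out. The share of probe sets passing was taken in the fit reported only (7.69%), so these counts have none beside them. Members above the background numbered 2, also at the 99th percentile and with an experiment left out, and 4 with vomeronasal receptor genes. Among the differences of the other members in fits with all arrays, 43 moved by less than the SD between experiments and 2 turned sign, both of Car8. The 43 include the fits with no block and with a random block, which cannot move them. With an experiment left out all 27 moved by less than that SD, which the arithmetic of 3 differences fixes in advance. Over the whole array 30 probe sets were higher and 16 lower in the fit reported, and 4 and 11 after a further quantile normalization. Signal over background limits what can be read for 7 members.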
